A study of Ovis aries with 14 samples.

Results

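Matrix metalloproteases (MMPs), ADAMTS proteases and tissue inhibitors of metalloproteases (TIMPs) were followed in the sheep ovary. Members were the genes whose name in the deposited tables is MMP with a number, starts with ADAMTS, or is TIMP1 to TIMP4. This gave 40 of the 17323 genes listed in any table, made up of 14 MMP, 18 ADAMTS, 5 ADAMTS-like (ADAMTSL) and 3 TIMP genes. The study measured total RNA of whole frozen ovaries from wild type Suffolk sheep by RNA-seq. Fetuses at day 90 (3 control, 3 testosterone) and adults at year 2 (4 control, 4 testosterone) were compared. The adult numbers are those of the labels and of the 2 adult tables together, while the series text counts 3 adult controls and 4 testosterone adults. Mothers of the testosterone groups had been injected into muscle with 100 mg of testosterone propionate in cottonseed oil, 2 times a week, from day 30 to day 90 of gestation. The fetal ovaries were therefore taken at the end of the exposure and the adult ovaries long after it. The labels call the other groups control without naming what their mothers received, and do not tie the samples to mothers or litters, so p-values reflect only how much these samples spread.

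MMPs and ADAMTS proteases are zinc enzymes that cut collagens, proteoglycans and other proteins around cells, and most are made as inactive precursors. TIMPs bind the active enzymes and block them, and ADAMTS-like proteins share the binding modules of ADAMTS proteases but lack the catalytic domain. In the ovary these proteins take part in the remodelling that accompanies follicle growth, ovulation and the building and regression of the corpus luteum.

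Values are normalized counts, in which the reads of a gene are scaled by the library's size factor, on 1 scale for all 14 libraries. Log2 changes were taken on log2 of the normalized count plus 1 and tested with limma, with Benjamini-Hochberg adjustment over all genes tested and a threshold of 0.05. The fetal table lists 37 of the 40 members, and MMP1, MMP12 and ADAMTS16 have values in the adult tables alone. TIMP4, ADAMTS8 and the MMPs MMP3, MMP7, MMP8 and MMP10 were not among the listed names and were not analysed here. All 37 fetal and all 40 adult members passed the filter of a mean of at least 10. By gene order in RefSeq (ARS-UI_Ramb_v3.0), ADAMTS5 and ADAMTS1 are neighbours with 0 protein-coding genes between them, as are MMP13 and MMP12, with MMP1 1 gene further on.

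Libraries held 22.6 to 33.4 M reads. Member genes took 0.368% to 0.439% of reads in the fetal libraries and 0.279% to 1.64% in the adult ones. The germ cell marker DDX4 was present in the fetal ovaries, at 3315 to 5899 in controls, and low in the adults, at 23.3 to 70.3 in controls. The luteal markers OXT and STAR stood far above the other libraries in adult control 6, testosterone 4 and testosterone 7. OXT read 105432, 122264 and 68252 there, and 24.1 to 87.5 in the other adults. Adult control 4 stood apart in smooth muscle markers, with DES at 105227 against 2349 to 8923 in the other adult libraries, and was also highest in endothelial markers (6 of 6 listed, summed 100793 against 13641 to 50978). In whole-ovary RNA, fewer cells of a type and less RNA per cell cannot be told apart.

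**Figure D1:**
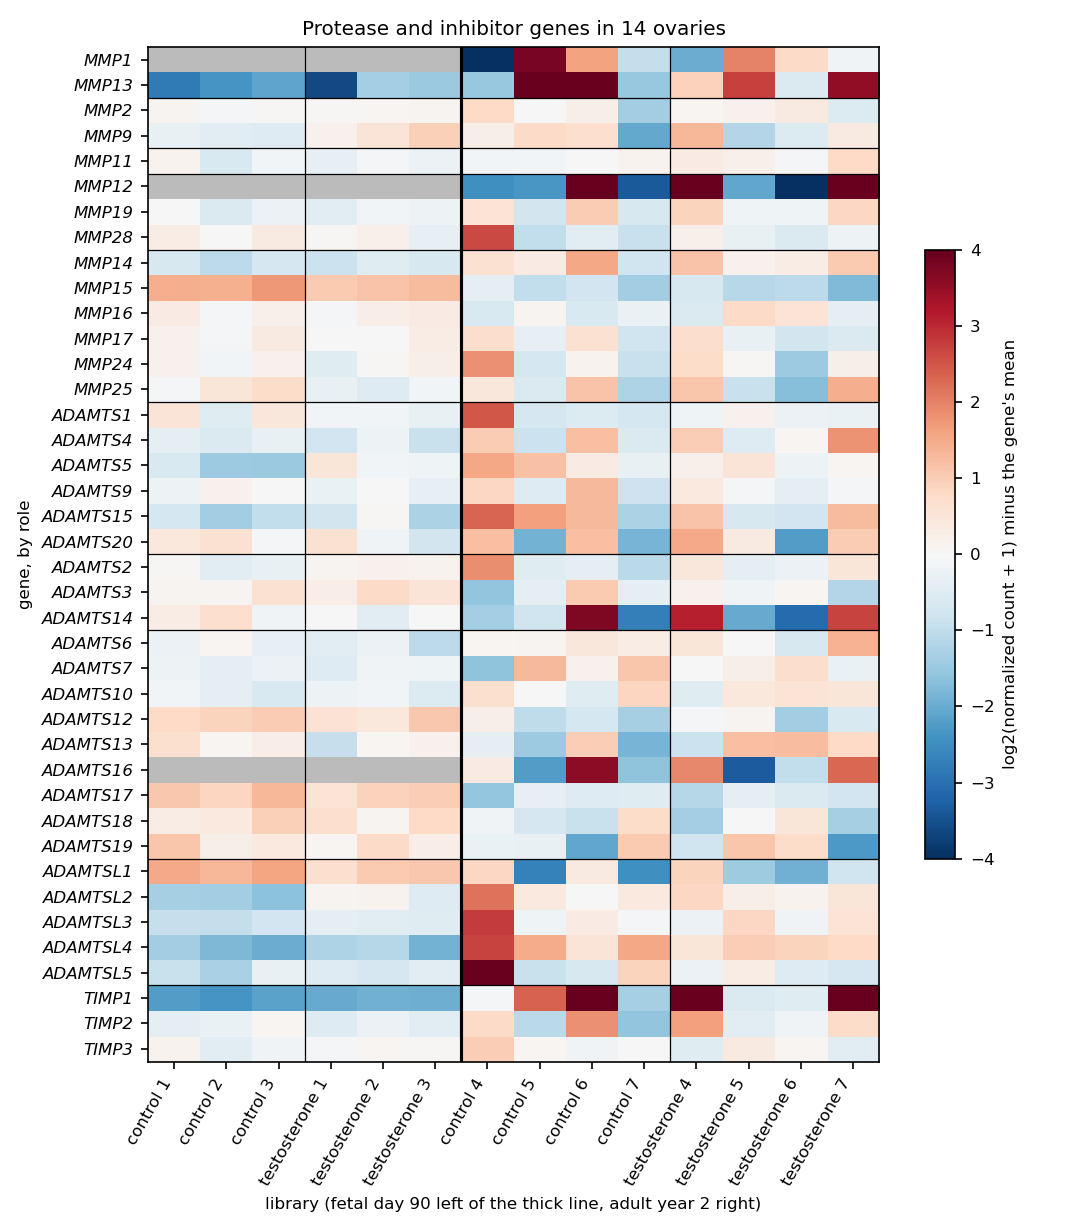
Log2 level of each listed member in each of the 14 libraries relative to that gene's mean, with colour limited to 4 log2 units either way and grey for members that the fetal table does not list. Genes are ordered by role. The fetal libraries look alike, while adult libraries differ widely, as in TIMP1, MMP12, MMP1 and ADAMTS14.

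In the day 90 ovary, the members of smallest p were ADAMTSL2, MMP9 and ADAMTS5, all higher after testosterone, and ADAMTSL1, which was lower. limma called 0 of the 37 members, with a smallest adjusted p of 0.136, against 0.0183% of all 16363 genes called. At an unadjusted limma p under 0.05, 6 members were higher (5.26% of all genes) and 2 lower (4.55%), where 9.8% of all genes passed either way. DESeq2 on the recovered reads called 3 members higher (ADAMTSL2, MMP9 and ADAMTS5, against 1.09% of all genes) and 1 lower (ADAMTSL1, against 0.519%), from 1.61% of all genes called in all. MMP25 and MMP13 had no adjusted p from DESeq2. edgeR called 0 members and 0.0244% of all genes. The authors' deposited table gives an adjusted p under 0.05 to the same 4 genes, and to 1.59% of all its 16513 genes. It rests on the same libraries, with nearly the same log2 changes as DESeq2 (ADAMTSL2 1.389 and 1.388), and is no separate evidence. The median log2 change of the 37 members was -0.01, beside -0.02 over all genes. Groups did not overlap for 6 members that were higher (8.73% of all genes) and 3 that were lower (7.6%), and this held for 16.3% of all genes either way.

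Among the proteoglycan-cleaving enzymes, ADAMTS5, an aggrecanase that also cuts versican, read 390, 218 and 212 in controls 1 to 3. It read 834, 557 and 536 in testosterone 1 to 3, so that all testosterone libraries lay above all controls, and number 1 was highest in each group. The log2 change was 1.26 (SE 0.27, n = 3 per group), with an adjusted p of 0.276 by limma and 0.00227 by DESeq2. Its neighbour ADAMTS1, which also cuts versican and is induced at ovulation in other species, read 4110.1, 2031 and 3931 in controls and 2652, 2624 and 2307 after testosterone. These groups overlapped, and the log2 change was -0.34 (SE 0.25). ADAMTS4, the other main aggrecanase, read 360.4, 320.2 and 387 against 278, 412 and 253, and ADAMTS9 read 1041, 1334 and 1204 against 985, 1171 and 947. Both overlapped between groups. Of the 6 listed genes of this class, 2 had positive and 4 negative log2 changes.

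Within the ADAMTS-like group, 4 of 5 log2 changes were positive. ADAMTSL2, a microfibril-associated protein that limits TGF-beta signalling, read 149, 141 and 119.8 in controls and 403, 410.1 and 258 after testosterone. Its groups were well apart, with means of 137 ± 15.2 and 357 ± 85.9 (SD, n = 3 each). The log2 change of 1.35 (SE 0.21) had an adjusted p of 0.136 by limma and 7.58e-06 by DESeq2. Without testosterone 3, the library of its group nearest the controls, the change was 1.57 and limma called it, at an adjusted p of 0.0369. DESeq2 was the only other of 15 alternatives to call it. The remaining 13 left it uncalled as in the main fit, with limma adjusted p up to 0.481. ADAMTSL1, a secreted matrix protein, read 2436, 2152 and 2542 in controls against 1379, 1783 and 1795. All its testosterone libraries lay below all controls, by a log2 change of -0.53 (SE 0.13) with an adjusted p of 0.288 by limma and 0.0238 by DESeq2. ADAMTSL3 read 72.6, 71.1 and 81.1 against 107, 103 and 98.8, again without overlap, at a log2 change of 0.45 (SE 0.19) and an adjusted p of 0.482 by limma.

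The gelatinases were MMP9 and MMP2, and their difference from each other was not tested. MMP9 (gelatinase B), which degrades denatured collagen and basement membrane collagen, read 304, 274 and 257 in controls and 418, 529 and 718 after testosterone. No library overlapped, and the log2 change was 0.96 (SE 0.20), with an adjusted p of 0.254 by limma and 0.00148 by DESeq2. MMP2 (gelatinase A) read 24138, 21451 and 23063 against 23317, 23832 and 24158. Its log2 change was 0.06 (SE 0.08, 95% interval -0.12 to 0.23), and its range over the 6 libraries, 0.17 on the log2 scale, was the smallest of the members.

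**Figure D2:**
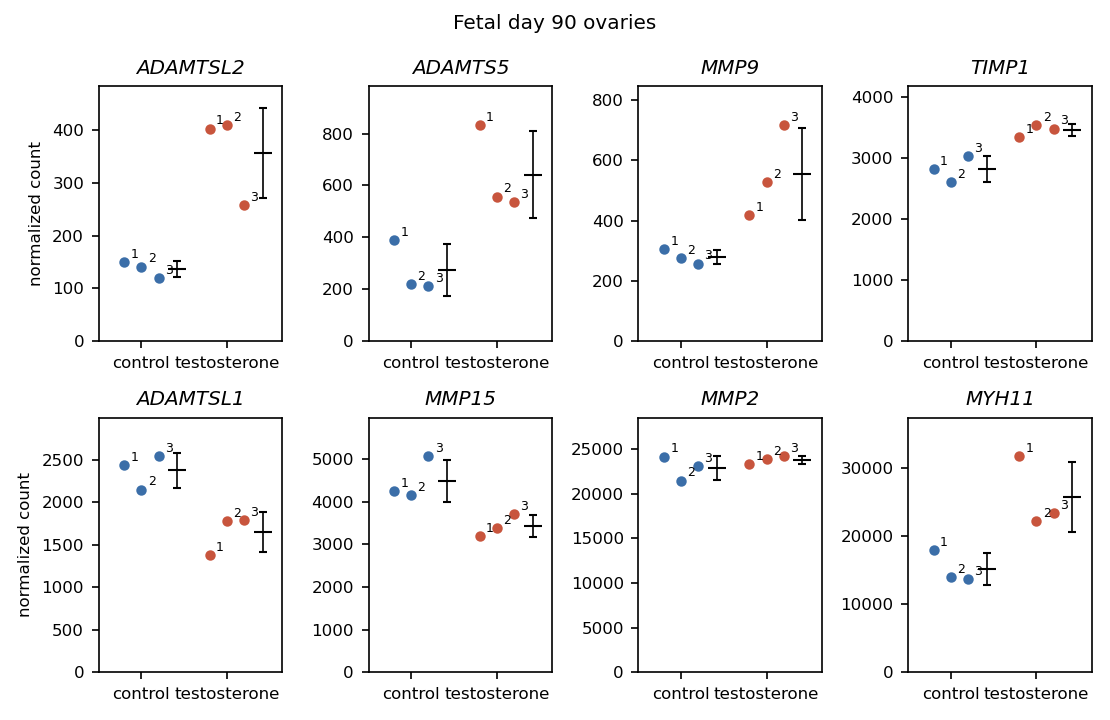
Normalized counts (linear axes) in the 3 control and 3 testosterone fetal ovaries, points for libraries and bars for mean ± SD. ADAMTSL2, MMP9 and ADAMTS5 have all testosterone points above all controls, and ADAMTSL1 and MMP15 have them below.

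Membrane-type MMPs, which work at the cell surface, had 2 positive and 4 negative log2 changes. MMP15 read 4246, 4162 and 5065 in controls and 3195, 3378 and 3708 after testosterone, with no overlap. The log2 change was -0.39 (SE 0.10), at an adjusted p of 0.325 by limma and 0.06 by DESeq2. MMP14, the activator of pro-MMP2, read 9447, 7061 and 9195 against 8097, 10386 and 9314. Its groups overlapped and its log2 change of 0.12 (SE 0.14) went to -0.02 without control 2. MMP25, a scarce membrane-anchored form, read 11.5, 17.5 and 20.7 against 9.68, 8.09 and 11.1, at a log2 change of -0.70 (SE 0.39).

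Of the inhibitors, TIMP1 read 2814, 2599.6 and 3031 in controls and 3337, 3537 and 3476 after testosterone. The groups did not overlap, but the step was small, a log2 change of 0.30 (SE 0.09) with an adjusted p of 0.344 by limma and 0.11 by DESeq2. TIMP2, which inhibits MMPs and also takes part in MMP2 activation, read 10589, 11251 and 14442 against 9497, 11653 and 9916. TIMP3, the matrix-bound inhibitor that also blocks several ADAM and ADAMTS enzymes, read 24358, 16211 and 20136 against 21091, 23605 and 22993. Groups overlapped for both, with log2 changes of -0.22 (SE 0.13) and 0.17 (SE 0.14).

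The procollagen N-propeptidases, which trim fibrillar procollagens, were ADAMTS2, ADAMTS3 and ADAMTS14. ADAMTS2 read 2194, 1549 and 1702 in controls against 2294, 2399 and 2316. The testosterone libraries lay together just above the highest control, at a log2 change of 0.38 (SE 0.13, limma adjusted p = 0.425). ADAMTS14 read 292, 382 and 217 against 241, 172 and 241, overlapping, with a log2 change of -0.42 (SE 0.24). ADAMTS17, of the group with fewer known substrates, read 1341, 1152 and 1591 against 929.7, 1189.9 and 1257, at -0.27 (SE 0.16), and 7 of the 8 listed genes of that group had negative log2 changes. The other listed members had overlapping groups and log2 changes between -0.54 (ADAMTS13) and 0.38 (ADAMTS15), with limma adjusted p of 0.62 or more.

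Smooth muscle markers tended to be higher after testosterone in the fetus. All 6 of the 6 listed had positive log2 changes (0.55 to 1.01), and their summed normalized count was 27925 to 37531 in controls and 41280.5 to 64620.1 after testosterone. MYH11 and DES were higher without overlap, while ACTA2, ACTG2, TAGLN and CNN1 overlapped between the groups. limma called 0 of the 6 and DESeq2 called 3 (1.09% of all genes). Of the 4 stromal markers, all listed, PDGFRA (0.49) and DCN (0.39) were higher without overlap, and LUM (-0.02) and TCF21 (-0.22) overlapped. Macrophage markers (8 of 8 listed) overlapped between the groups, at 3376 to 4616 and 3059.8 to 3897. Neutrophil markers (5 of 6 listed) summed to 42.1 to 104 in controls and were 48.4, 55.8 and 209 in testosterone 1 to 3, highest in the library that was also highest in MMP9. Without testosterone 3 the log2 change of MMP9 was 0.76. Granulosa markers (4 of 7 listed) summed to 1773 to 2137 in controls and 2429 to 2534 after testosterone. KRT8, the 1 listed of 5 surface epithelium markers, read 819 to 1324 in controls and 1519 to 2298 after testosterone. The steroidogenic enzyme genes CYP17A1 and CYP11A1 were lower after testosterone, with no overlap, while the sums of their lists overlapped. Theca markers (2 of 2 listed) summed to 168 to 446 in controls and 126 to 175 after testosterone, with CYP17A1 at 39.5 to 187 and 5.4 to 15.3. The luteal list (6 of 6 listed) summed to 2694 to 3302 and 2526 to 2758, with CYP11A1 at 156 to 460.2 and 31.5 to 79.2. The part of these cell types in the members' differences was not tested.

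Other genes of matrix turnover were taken from a list of 55 substrates, activators, plasminogen system genes, ADAM proteases and cathepsins. Of 46 tested in the fetal ovary, 23 had positive and 23 negative log2 changes. limma called 0 (0.0183% of all genes) and DESeq2 called 2 (1.61% of all genes). TNFAIP6 and TLL1 had no adjusted p from DESeq2. HSPG2, the basement membrane proteoglycan perlecan, was higher at a log2 change of 0.59 (DESeq2 adjusted p = 0.0193). BCAN, the proteoglycan brevican, was lower at -1.01 (DESeq2 adjusted p = 0.0454). ADAM12 (0.29), a membrane protease, and the collagen gene COL1A1 (0.37) were next in the positive direction. The matrix protein gene COMP (-0.92) and ADAM17 (-0.27), a sheddase of membrane proteins, were next in the negative one. None of these 4 passed limma or DESeq2 after adjustment.

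In the adult ovary, the members spread widely within each group. The median SD of members on the log2 scale was 1.15 in controls and 0.66 in testosterone libraries, against 0.51 and 0.44 over all genes. In the fetus the same medians were 0.24 and 0.23 for members and 0.17 and 0.19 over all genes. The median range over the 8 adult libraries was 2.92 for members and 1.44 for all genes. Control 4 was the highest library for 15 of 40 members, and for 23.4% of all genes. Control 7 was the lowest for 12 of 40, and for 16.5% of all genes.

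TIMP1, the secreted inhibitor of most MMPs, had a range of 5.93 on the log2 scale, behind 6 members of which MMP12 had the widest, 9.45. TIMP1 read 13021, 69328, 321627 and 5279 in controls 4 to 7 and 226768, 8891, 9569 and 218612 in testosterone 4 to 7. Its 3 highest libraries, control 6, testosterone 4 and testosterone 7, were the 3 that were high in OXT, and both groups held high and low libraries. The same 3 libraries ranked highest for 8 of 40 members (TIMP1, MMP12, MMP14, MMP19, MMP25, ADAMTS6, ADAMTS14 and ADAMTS16), and for 14.8% of all genes. This is a description of order, chosen after the values were seen, and no test was made of it.

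MMP12, the macrophage elastase, read 5.19, 5.61, 1413 and 2.3 in controls and 539, 7.03, 1.02 and 959 after testosterone. It thus lay at 539 or above in 3 libraries and at 7.03 or below in the other 5. ADAMTS14 had the same split, at 92.1, 137, 3187 and 34.6 in controls and 2035, 58.2, 27.5 and 1541 after testosterone. MMP14 showed it more weakly, at 22212, 18417, 42633 and 8423 against 32364, 16599, 18077 and 30458. MMP19, a secreted MMP found in many tissues, read 1475, 606, 2021 and 645 against 1873, 902, 905 and 1794.

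The summed macrophage markers (8 of 8 listed) were also highest in those 3 libraries, at 43283 in control 6, 39960 in testosterone 4 and 42576 in testosterone 7. The other 5 adult libraries had 2985 to 13089. Summed luteal markers (6 of 6 listed) were 239274 to 274581 in the 3 libraries and 5266 to 11837 in the others. Summed neutrophil markers (4 of 6 listed) were 2076 in control 6, 1108 in testosterone 4 and 3359 in testosterone 7. They were 22.4 to 160.4 in the other 5 adult libraries. How far luteal cells, macrophages, neutrophils or other cells account for the members' levels was not tested.

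Other members were high in other libraries. MMP1, the interstitial collagenase, read 3.89, 2310.2, 506 and 84.1 in controls and 40.7, 644, 276 and 148 after testosterone, with its highest value in control 5. MMP13, collagenase 3, read 18.2, 1959, 1792 and 18.4 against 104, 367, 35.6 and 639.8. Both collagenases were thus high in control 5 and low in control 4, and their ranges were 8.88 and 6.68 on the log2 scale.

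Control 4, the library rich in smooth muscle and endothelial markers, held the highest ADAMTS1, ADAMTSL4 and ADAMTSL5. ADAMTS1 read 15828 there, against 1769 to 1934 in the other controls and 2369 to 3239 after testosterone. ADAMTSL5, a microfibril-binding protein, read 6199.9 in control 4 and 55, 65.7 and 193 in controls 5, 6 and 7, against 87.1, 127, 72.2 and 64 after testosterone. MMP28 (epilysin) read 5567 in control 4 and 444 to 1029 in the other adult libraries. The summed smooth muscle markers were 886263 in control 4 and 65987 to 232908 in the other 7. Markers of a response to handling (FOS, JUN and EGR1, 3 of 4 listed) were also highest in control 4. They summed to 36472 there and to 7911 to 26099 in the other adult libraries. The part of smooth muscle cells, endothelial cells or handling in these levels was not tested.

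TIMP2 read 22927, 6385, 48562 and 4573 in controls and 42383, 10129, 12298 and 22541 after testosterone. TIMP3 read 44266, 23443, 20207 and 21926 against 16013, 28533, 23372 and 16635. TIMP3 thus varied less between libraries than the other inhibitors, and its lowest libraries were testosterone 4 and 7, where TIMP1 was high. ADAMTS19, which is needed for normal heart valves, was also lowest in the libraries high in OXT, at 4.5 in control 6 and 12.4 and 3.76 in testosterone 4 and 7. It read 18.2, 18 and 47.2 in controls 4, 5 and 7 and 49.2 and 37.6 in testosterone 5 and 6. ADAMTS16, which was high in those libraries, read 11.7, 1.12, 119.7 and 2.3 in controls and 37.3, 0, 4.07 and 48.9 after testosterone. ADAMTS7, which cuts COMP, had its lowest value in control 4, at 1351 against 3460.1 to 10141 in the other adult libraries.

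**Figure D3:**
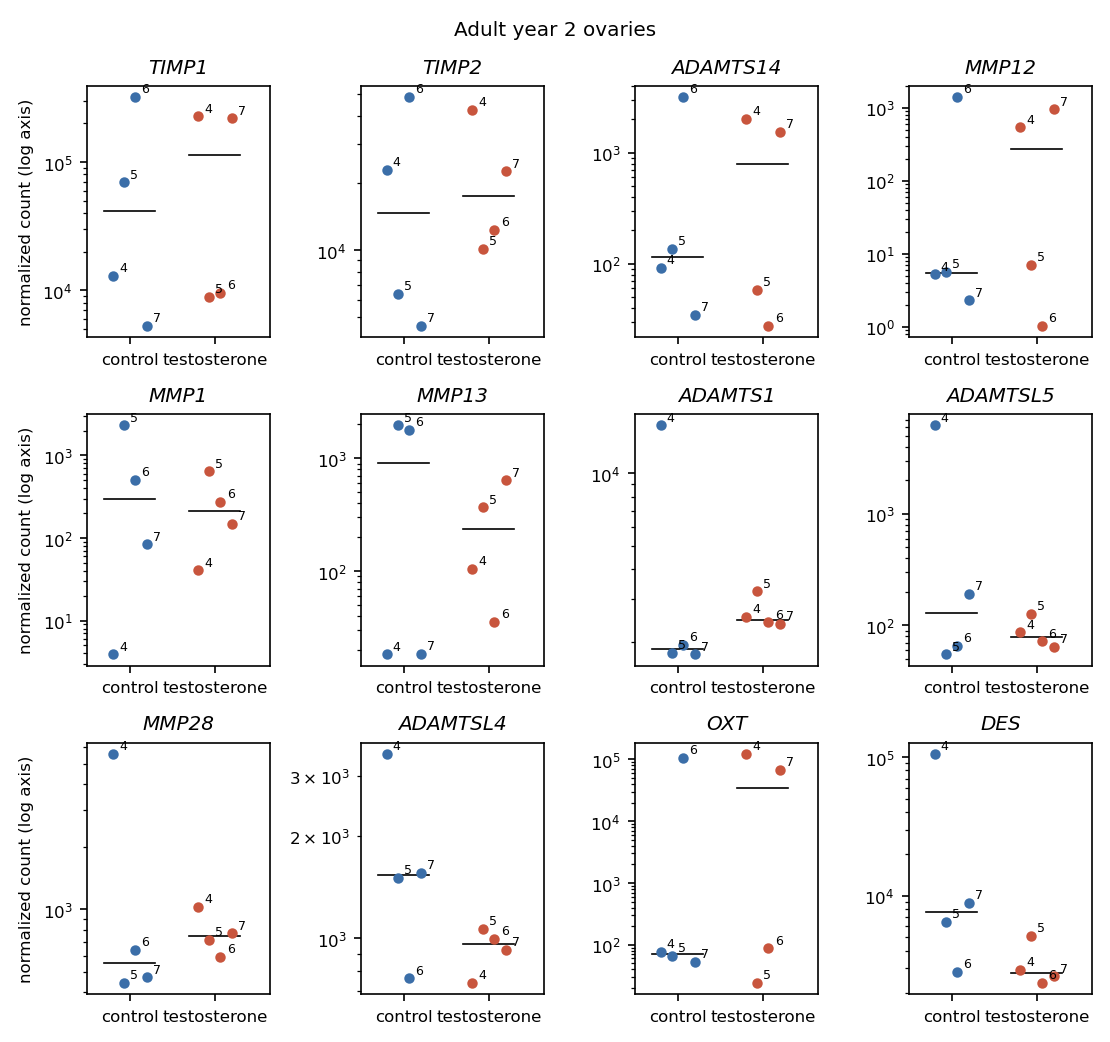
Normalized counts of 10 members and of the markers OXT and DES, on a log axis, in the 4 control and 4 testosterone adult ovaries, each point labelled with its replicate number and lines at the group median. TIMP1, MMP12 and ADAMTS14 are high in control 6 and testosterone 4 and 7, and the groups overlap in every panel.

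Between adult testosterone and control, limma called 0 of 40 members, against 0.0127% of all 15770 genes. DESeq2 (0.0444% of all genes) and edgeR (0.00634%) also called 0 members, 0 had an unadjusted limma p under 0.05 (0.812% of all genes), and 0 had groups that did not overlap (0.717% of all genes). DESeq2 gave no adjusted p for ADAMTSL5, ADAMTSL3, ADAMTS1 and MMP28, so it did not decide on these. The median log2 change was 0.05 for members and -0.01 over all genes. Adjusted p from limma was 1 for every member.

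The lower members of smallest p were ADAMTSL4, ADAMTS5, ADAMTSL5, TIMP3 and ADAMTS15. ADAMTSL4, a microfibril protein of the eye's zonule and other matrices, read 3472, 1503, 762 and 1551 in controls and 738, 1062, 995 and 922 after testosterone. Only control 6 lay among the testosterone libraries, and the log2 change was -0.77 (SE 0.40, 95% interval -1.69 to 0.14), or -0.40 without control 4. ADAMTS5 read 1771, 1361, 757 and 488 against 686, 864, 517 and 635, with overlap and a log2 change of -0.55 (SE 0.40), or -0.26 without control 4 and -0.88 without control 7. ADAMTSL5 had -1.60 (SE 1.33), which became -0.07 without control 4. TIMP3 had -0.34 (SE 0.31), or -0.088 without control 4. ADAMTS15, a versican-cleaving enzyme, read 1906, 1177, 946 and 159 against 848, 246, 224 and 911, at -0.75 (SE 0.80), -0.31 without control 4 and -1.50 without control 7.

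The higher members of smallest p were ADAMTS13, MMP11, MMP16, MMP19 and ADAMTS4. ADAMTS13, which cuts von Willebrand factor, read 60.9, 28.1, 157 and 20.7 in controls and 43, 181, 185 and 137 after testosterone. Control 6 and testosterone 4 went against the other libraries of their groups, and the log2 change was 1.26 (SE 0.72). MMP11 (stromelysin 3) read 729, 719, 776 and 857 against 979, 905, 760 and 1357, a log2 change of 0.35 (SE 0.21), and had the smallest adult range of any member, 0.92 on the log2 scale. MMP16 read 1290, 2107, 1276 and 1615 against 1305, 3362, 2889 and 1539, where testosterone 5 and 6 alone lay above the controls, at 0.45 (SE 0.34). MMP19 had 0.31 (SE 0.45). ADAMTS4 read 954, 263, 1098 and 318 against 936, 330.3, 506 and 1637, at 0.39 (SE 0.62). The signs of MMP19 and ADAMTS4 turned under some alternatives.

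The adult gelatinases passed no test. MMP2 read 38907, 22873, 26372 and 8529 in controls and 23561, 25271, 28574 and 15419 after testosterone. MMP9 read 439.5, 629, 593 and 89.8 against 935, 164, 252 and 473, and ADAMTS9 read 2104, 837, 2948 and 669 against 1565, 1120.3, 908 and 1134. The 3 genes had overlapping groups, and control 7 was the lowest library for each.

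Of the other matrix turnover genes, 46 were tested in the adults, 31 with positive and 15 with negative log2 changes, and limma, DESeq2 and edgeR called 0. PCSK6, TFPI2 and ACAN had no adjusted p from DESeq2. Versican (VCAN, 0.41), the hyaluronan link protein HAPLN1 (1.72) and ADAM12 (1.05) had the smallest p among the positive ones. The proprotein convertase PCSK6 (-0.82), the protease inhibitor TFPI2 (-0.74) and the collagen gene COL4A1 (-0.46) had the smallest among the negative ones.

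Comparing adult with fetal controls, 4 of 37 members rose and 4 fell by limma, where 13.3% and 14.9% of all genes did. This is 21.6% of the members, below the 28.3% called among all 15175 genes. The authors normalized the tables of the 2 ages separately, so these levels rest on recovered reads placed on 1 scale. For each gene the limma fit took 1 spread from all 14 libraries. The median SD of members was 0.24 in fetal and 1.15 in adult controls on the log2 scale. The SE and p of the age changes may therefore be too small. DESeq2 called 8 higher and 3 lower, against 20.6% and 17% of all genes (37.6% in all), and edgeR 9 and 3, against 14.8% and 14.5% (29.3% in all). ADAMTSL5, ADAMTS1 and MMP28 had no adjusted p from DESeq2. Fetal and adult controls did not overlap for 7 higher and 4 lower members, against 19.9% and 20.6% of all genes (40.5% in all). The median log2 change was 0.17 for members and 0.03 over all genes.

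The members that rose with age were ADAMTSL4, ADAMTSL2, ADAMTS5 and MMP14. ADAMTSL4 read 203, 154 and 135 in fetal controls and 762 to 3472 in adult controls, a 9.69-fold rise (log2 3.28, SE 0.39, limma adjusted p = 8.18e-05). ADAMTSL2 went from 119.8 to 149 up to 369.8 to 1663 (log2 2.18, SE 0.41, limma adjusted p = 0.00221). ADAMTS5 went from 212 to 390 up to 488 to 1771 (log2 1.89, SE 0.39, limma adjusted p = 0.00374). These 3 had no overlap between ages. MMP14 had a smaller rise, log2 1.20 (SE 0.42, limma adjusted p = 0.0471), and control 7 at 8423 lay among the fetal controls of 7061 to 9447.

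The fallers were MMP15, ADAMTS17, ADAMTS12 and ADAMTSL1. MMP15 read 4162 to 5065 in fetal controls and 580.4 to 1203 in adult controls, a 5.35-fold fall (log2 -2.42, SE 0.26, limma adjusted p = 3.83e-05). ADAMTS17 read 1152 to 1591 against 217 to 508 (log2 -1.80, SE 0.28, limma adjusted p = 0.000597). ADAMTS12, which cuts COMP, read 750.3 to 884 against 172 to 513 (log2 -1.61, SE 0.39, limma adjusted p = 0.00888). ADAMTSL1 fell from 2152 to 2542 down to 131 to 1519 (log2 -2.46, SE 0.82, limma adjusted p = 0.0398). None of these 4 overlapped between ages.

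TIMP1, MMP13 and ADAMTSL3 also had no overlap between fetal and adult controls but missed the limma threshold. TIMP1 had a log2 change of 3.65 (SE 1.37, limma adjusted p = 0.0625, DESeq2 adjusted p = 2.1e-05). Of 25 alternatives, 5 called it, among them DESeq2 and edgeR (adjusted p = 0.0255), and limma adjusted p went up to 0.149. Its log2 change was 2.58, at a limma adjusted p of 0.0182, without control 6, testosterone 4 and testosterone 7. Those libraries are the ones highest in TIMP1 and were chosen after the values were seen, so that fit adds no support. MMP13 had 4.23 (SE 1.62), from normalized counts of 6.69 to 11.7 in fetal controls to 18.2 to 1959 in adult ones, at a limma adjusted p of 0.0664. Leaving out adult libraries moved it from 3.11 without control 5 (limma adjusted p = 0.161) to 5.33 without control 4 (0.0228) or control 7 (0.0227). ADAMTSL3 had 1.61 (SE 0.58, limma adjusted p = 0.0519) and read 971 in control 4 against 123 to 176 in the other adult controls. Without control 4 its log2 change was 0.92, at a limma adjusted p of 0.0378.

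**Figure D4:**
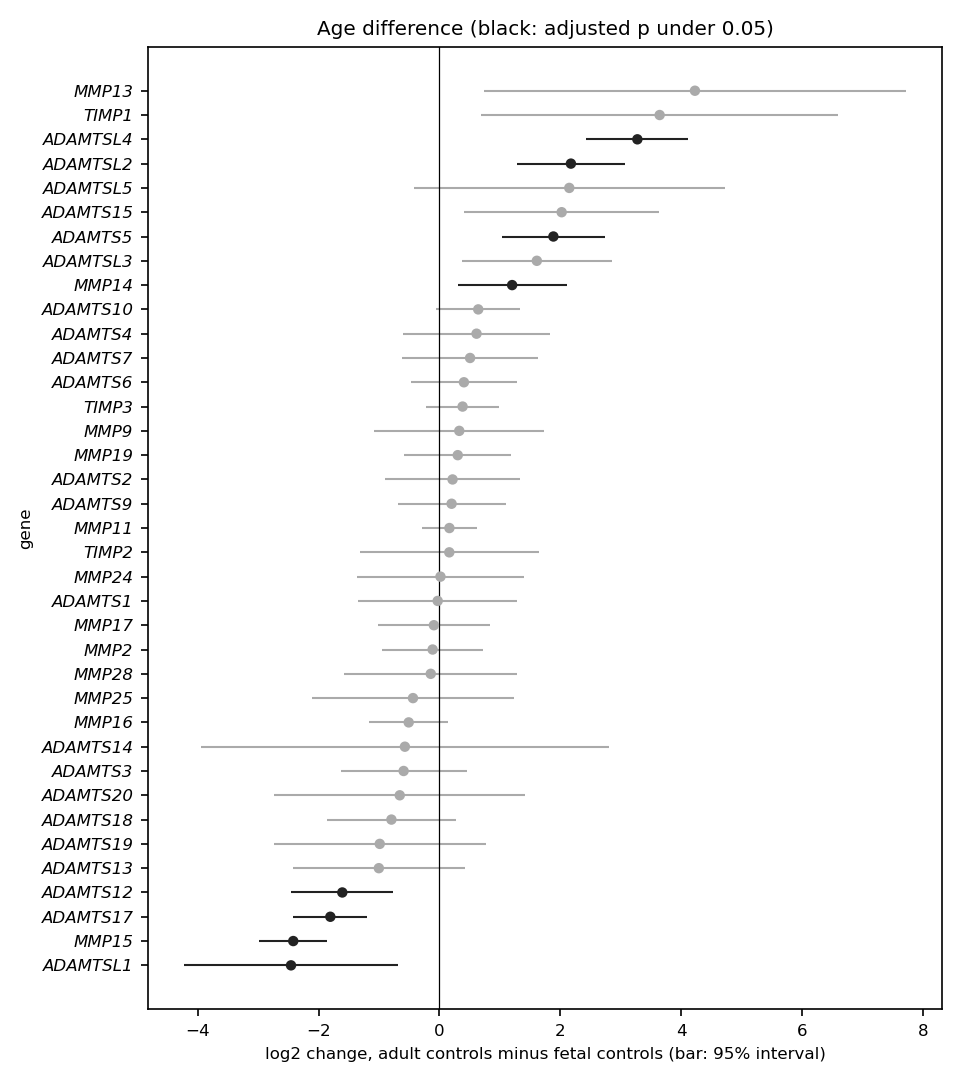
Log2 change from fetal to adult controls for the 37 members with values at both ages, with 95% intervals, black where limma adjusted p was under 0.05 and grey elsewhere. ADAMTSL4, ADAMTSL2, ADAMTS5 and MMP14 are the black points on the right, and MMP15, ADAMTS17, ADAMTS12 and ADAMTSL1 those on the left.

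The calls for MMP14 and ADAMTSL1 were near the threshold. Leaving out each library gave log2 changes of 0.83 to 1.61 for MMP14 and -3.06 to -1.89 for ADAMTSL1. MMP14 missed the threshold on leaving out any 1 of the 6 fetal libraries, adult controls 4, 5 or 6 or testosterone 6 or 7, with limma adjusted p up to 0.153. ADAMTSL1 missed it without any 1 of the fetal libraries or adult controls 5 or 7 (up to 0.107), and by DESeq2 (0.0616) and edgeR (0.105). Cell markers also moved with age. All 6 smooth muscle markers rose (summed 27925 to 37531 in fetal and 65987 to 886263 in adult controls), and both germ cell markers with values at both ages fell. The part of these cells in the members' age differences was not tested.

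Among the other matrix turnover genes, 9 of 45 rose and 3 fell with age by limma, beside the 28.3% of all genes. The risers of largest fold were RUNX2 (log2 3.27), a transcription factor, THBS1 (2.65), which encodes thrombospondin 1, and TLL1 (2.62), a procollagen C-proteinase. ADAM15 (1.71), the collagenolytic cathepsin gene CTSK (1.52) and HSPG2 (1.26) followed. The fallers were FBN2 (-2.32), the fibrillin typical of fetal microfibrils, NID1 (-1.62), the basement membrane linker nidogen 1, and ADAM17 (-0.60).

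The testosterone effect was then compared between the ages by the difference of log2 changes, adult minus fetal. limma called 0 of 37 members, against 0.00659% of all genes. DESeq2 (0.0659%) called 0 and edgeR (0.00659%) called 0, where DESeq2 gave no adjusted p for ADAMTSL5, ADAMTS1 and MMP28. At an unadjusted limma p under 0.05, 2 members were lower, against 0.923% of all genes. These were ADAMTS5, with a difference of -1.81 (SE 0.56, limma adjusted p = 1), from 1.26 in the fetus and -0.55 in the adult, and ADAMTSL2, with -1.67 (SE 0.59, limma adjusted p = 1), from 1.35 and -0.32. ADAMTS13 (1.81, SE 0.93) and ADAMTSL4 (-1.07, SE 0.55) were next. In these 2 leading genes the fetal testosterone libraries lay closer to the adult levels than the fetal controls did. With testosterone libraries in place of controls, the change from fetus to adult was 0.08 for ADAMTS5 (limma adjusted p = 0.907) and 0.50 for ADAMTSL2 (limma adjusted p = 0.411). Those changes use the same libraries as the difference itself and are no separate evidence of it.

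**Figure D5:**
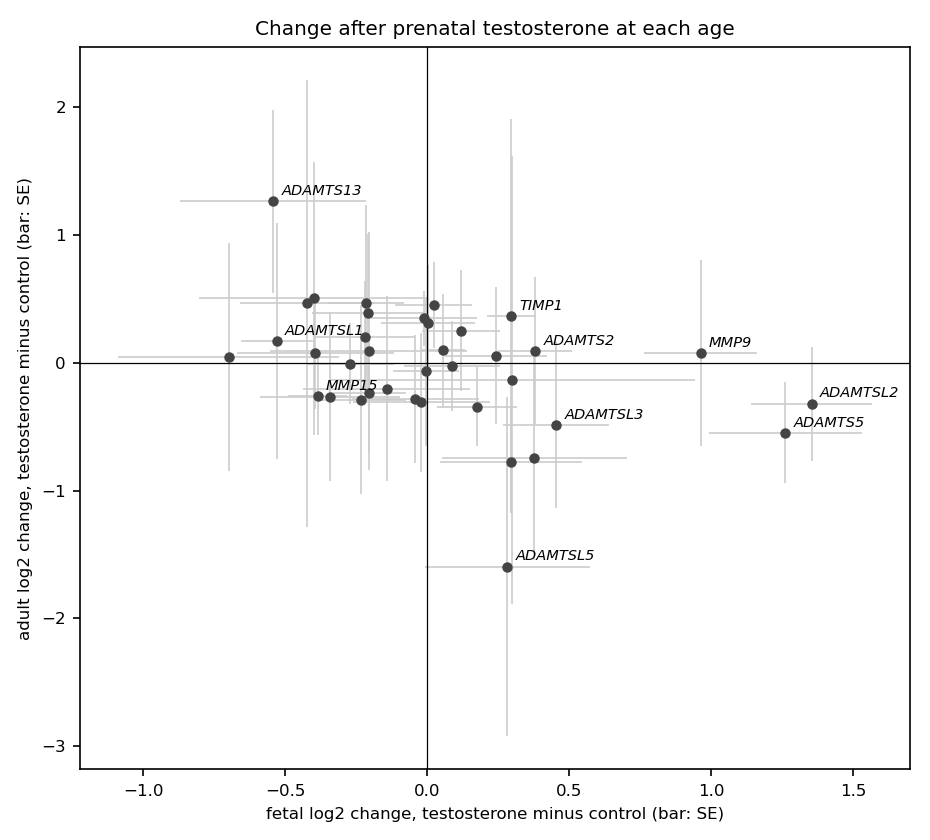
Log2 change after testosterone in the fetus (x) and in the adult (y) for the 37 members with values at both ages, with bars of 1 SE. ADAMTS5 and ADAMTSL2 lie to the right of 0 in the fetus and below 0 in the adult, and the adult bars are longer than the fetal ones.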

How the data were processed

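Per the labels, libraries were made from 500 ng of total RNA and read as pairs of 150 bases. The tools named are Trimmomatic 0.36, a read trimmer, and STAR 2.5.2b, an aligner, per the submitters' processing notes. The counter, genome build and annotation were not given in the sources used here. Each of the authors' 3 deposited tables holds 1 signal column for every library, a normalized count, next to the authors' log2 fold change and their raw and adjusted p-value, per the file headers. Dividing a library's values by the worth of 1 read gave whole numbers (within 0.01) for 100% of values in each library, so reads were recovered in this way.

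Recovered reads were divided by median-of-ratios size factors over all 14 libraries. Each adult table holds 6 of the 8 adult libraries, so they were joined, with 4 libraries present in both. Control 6 has 26.4 M reads in 1 table and 33.4 M in the other, and the deeper set was used. Genes whose mean reached 10 were tested with limma 3.58.1, run in R 4.3.3 with its mean-variance trend, on log2(value + 1). The fetal and adult comparisons used the libraries of that age, and the comparisons of ages used all 14. The recovered reads were also tested with DESeq2 1.42.0 and with the quasi-likelihood test of edgeR 4.0.16, with adjusted p of NA kept as such. Each tool was tested on simulated data for each comparison, with 100 genes altered 2-fold and 100 altered 4-fold. In simulated fetal data limma found 57% and 89% of these genes, with 12 false calls, and DESeq2 73% and 91%, with 39. In simulated adult data limma found 1% and 26%, edgeR 0% and 19%, and DESeq2, with 72 false calls, 14% and 64%. For the difference between ages limma found 2% and 30%. Calls of 0 members in the adult, or for that difference, therefore cannot exclude changes of these sizes. In the real fetal data limma called 3 of 16363 genes, fewer than in the simulation, which makes the adjustment stricter. The shares found in simulated fetal data may therefore be too high for the real data. Calls of 0 members by limma in the fetus cannot exclude 2-fold changes either. Alternatives were other filters, pseudocounts, TMM scaling, the deposited values, marker covariates, array weights, the replicate number as a block and leaving out libraries.

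Values in every library are given for TIMPs, MMP2, MMP9, MMP14, ADAMTS1, ADAMTS4, ADAMTS5, ADAMTS9, members that passed limma or DESeq2 at 1 age and up to 5 per direction of smallest p. Members that passed between ages are given up to 8 per direction, and the difference between ages up to 4. From the other matrix genes up to 6 per direction that passed, or the 3 of smallest p, are named. MMP1, MMP12, MMP13, MMP28, ADAMTS7, ADAMTS14, ADAMTS16, ADAMTS19 and ADAMTSL3 in the adult were described after their values were seen. Members and lists were chosen with earlier results of these data known. No sequences are given.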

Additional observations from a re-analysis of the deposited data

Results flagged for a closer look

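In 5 of 80 adult groups of 4 libraries, 1 library stood apart on the log2 scale by more than Dixon's 95% limit for groups of 4, where chance gives about 1 in 20. Control 4 gave 3 of these. ADAMTS1, a versican-cleaving protease, read 15828 in control 4 and 1769 to 1934 in controls 5 to 7. MMP28 read 5567 there and 444 to 639.7 in the other controls. ADAMTS17 was lowest there, at 217 against 447 to 508. MMP12, the macrophage elastase, read 1413 in control 6 and 2.3 to 5.61 in the other controls. Among the testosterone libraries, ADAMTS10, a protease tied to microfibrils, read 795 in testosterone 4 and 1499 to 1616 in the others. The fetal groups of 3 were not examined in this way.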

How the results depend on the processing

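In the fetus DESeq2 called 3 members higher and 1 lower where limma called 0. On simulated fetal data DESeq2 made 39 false calls and limma 12, so calls by DESeq2 alone are less certain. Leaving out each fetal library gave 0 to 1 higher, the 1 being ADAMTSL2 without testosterone 3, and 0 lower. MMP14 ranged from -0.016 (without control 2) to 0.211. In the adult, 0 members were called under every alternative run. ADAMTS4 ranged from -0.014 (without testosterone 7) to 0.755 leaving out each library, and was -0.27 and -0.079 in the first and second deposited tables and -0.075 without the 3 libraries high in OXT, a choice made after seeing the data. MMP19 turned to -0.073 and -0.114 in the same tables. With the smooth muscle markers as a covariate ADAMTSL5 was 0.29 and TIMP3 0.045. Members called higher with age were 8 with DESeq2, 9 with edgeR, 8 with array weights, 2 with testosterone libraries in place of controls, and 3 to 8 leaving out each library (8 without adult control 7). Members called lower with age were 7 without the 3 libraries high in OXT and 3 to 6 leaving out each library (6 without adult control 4). Of these alternatives, the share of all genes called was taken for DESeq2 (20.6% higher) and edgeR (14.8% higher) alone. The other counts therefore cannot tell a change in the members from a change over all genes. For the difference between ages 0 members were called under every alternative run. The causes were not tested.

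Whether the replicate numbers pair the samples could not be settled. The highest correlation of deviations in adults was 0.68, between control 6 and testosterone 4, both high in OXT, which could hide a pairing. Deviations of same-numbered fetal libraries correlated at 0.13, 0.005 and 0.41 and those of adult ones at 0.05, 0.29, -0.64 and -0.19, and not every library correlated best with its own number. With the replicate number as a block, 0 members were called at either age, and the smallest limma adjusted p in the fetus was 0.0505, for ADAMTS5. TMM scaling moved the median of all genes by at most 0.05. Adult libraries of 4 per group with this spread limit what could be called there.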
